A study of Mus musculus with 4 samples.

Results

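The 9 genes Cyp7a1, Cyp7b1, Cyp8b1, Cyp27a1, Baat, Slc10a1, Abcb11, Nr1h4 and Nr0b2 encode enzymes of bile acid synthesis and conjugation, transporters of bile acids and the nuclear receptors that govern them. Every probe set, the group of short probes that reads 1 transcript, was taken where the platform annotation gave 1 of these genes and no other. This found 10 probe sets for 7 genes, of 10833 probe sets with 1 gene in all, and none for Cyp27a1 and Abcb11, which were not analysed here. The other 7 genes passed the signal filter, as did 4829 genes in the whole table. Of the 10 probe sets, 9 passed, and 1 of the 3 probe sets of Slc10a1 did not.

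Livers came from fed female mice killed at 8 months of age, and total RNA was hybridised to Affymetrix MG_U74Av2 arrays. Knockout mice, called HSL-null, lacked hormone-sensitive lipase (HSL, encoded by Lipe) in all tissues, and wild-type mice were set against them. The enzyme cleaves stored acylglycerols and cholesteryl esters. Both genotypes received either FD, with 58% of energy from fat, or ND, with 11%, for 6 months. The 4 pools held 4 livers for HSL-null on FD and 6 livers each for HSL-null on ND, wild type on FD and wild type on ND, and 1 pool went to 1 array. The sources used here do not name the mouse strain or the form of the knockout allele. There was thus 1 array per group, no difference was tested and no p-value is given. Precision is limited by this number of arrays. "Higher" and "lower" describe these 4 pools.

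Bile acids are made from cholesterol in hepatocytes. The classic route starts with Cyp7a1 and the alternative route passes through Cyp27a1 and Cyp7b1, while Cyp8b1 adds the hydroxyl group that makes cholic acid. Baat joins the acids to taurine or glycine, Abcb11 exports them into bile and Slc10a1 takes them up again from portal blood. Bile acids activate the receptor FXR, encoded by Nr1h4, which induces Nr0b2, the gene of the corepressor SHP, and SHP in turn represses Cyp7a1 and Cyp8b1.

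In these pools the genes differed in pattern. Cyp7a1 was higher on FD than on ND in both genotypes, by 2.31-fold in HSL-null and by 1.58-fold in wild type, and Nr1h4 was higher by 1.82-fold and by 1.27-fold. Nr0b2 stood high in the HSL-null FD pool alone, 2.27-fold above wild type on FD. Cyp8b1 was lower on FD than on ND, by 1.63-fold in HSL-null and by 1.23-fold in wild type. Baat and Slc10a1 varied by no more than 1.29-fold over the 4 pools.

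Values are MAS5 signals, the summary of a probe set on a linear scale, and each log2 ratio sets 1 array over another. A gene counted as different at a 2-fold ratio or more, that is, at a log2 ratio of 1 or beyond. The spread that can be measured here comes from genes read by a second probe set. It had an SD of 0.298 for a log2 ratio over 687 genes, and of 0.247 over the 317 genes whose probe sets both had mean signals of 50 to 500. This SD leaves out error shared by all probes of an array and all variation between animals. Signals of different probe sets are not compared with each other.

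**Figure D1:**
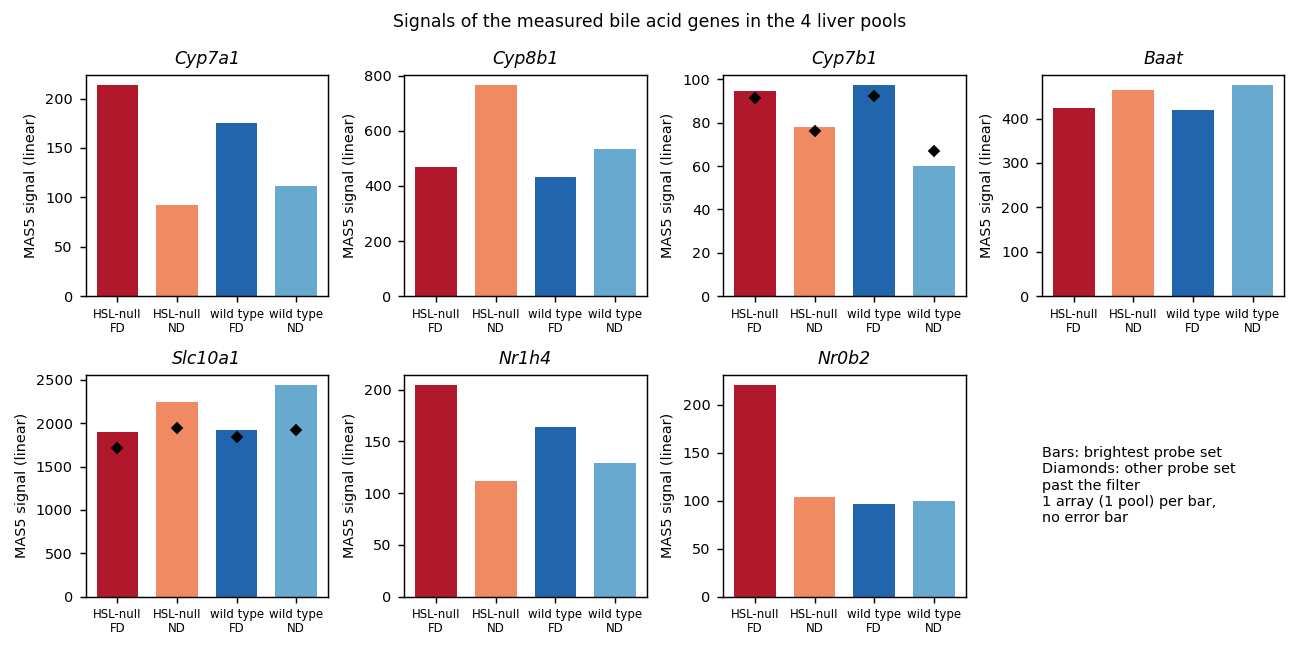
MAS5 signal (linear scale, from 0) of the 7 measured genes in the 4 liver pools, 1 array per bar and no error bar. Diamonds give the other probe set past the filter. Nr0b2 reached 220.4 in HSL-null on FD and lay between 97.1 and 104.0 in the other pools, and Cyp7a1 was highest on both FD arrays.

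The promoters of Nr0b2, Nr1h4 and Cyp8b1 are shown because these genes include the largest genotype ratio and the opposite diet ratios described below. RefSeq windows of 250 bases before to 50 after the start site (build GRCm38.p6) matched 6 of the 9 genes. Each is printed on the strand of its gene, with Nr0b2 at chr4:133553126-133553425 on the plus strand, Nr1h4 at chr10:89506609-89506908 on the minus strand and Cyp8b1 at chr9:121916256-121916555 on the minus strand. Capitals mark matches to 4 motifs searched on both strands. These were the nuclear receptor hexamer AGGTCA, the core AAGGTC of the NR5A2 site, which overlaps that hexamer by 5 letters, the HNF1 hexamer GTTAAT and the TATA box TATAAA.
Nr0b2: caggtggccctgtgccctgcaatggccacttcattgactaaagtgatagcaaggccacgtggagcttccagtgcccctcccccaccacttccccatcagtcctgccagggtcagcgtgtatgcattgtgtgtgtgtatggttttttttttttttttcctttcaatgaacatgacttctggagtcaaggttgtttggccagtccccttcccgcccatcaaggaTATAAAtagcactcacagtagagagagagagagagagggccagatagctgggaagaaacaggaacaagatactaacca
Nr1h4: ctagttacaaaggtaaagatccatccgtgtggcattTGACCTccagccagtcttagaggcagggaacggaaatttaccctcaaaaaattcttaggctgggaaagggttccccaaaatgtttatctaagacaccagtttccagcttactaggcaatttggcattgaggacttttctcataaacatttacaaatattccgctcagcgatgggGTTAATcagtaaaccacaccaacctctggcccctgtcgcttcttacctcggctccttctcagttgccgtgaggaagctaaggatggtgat
Cyp8b1: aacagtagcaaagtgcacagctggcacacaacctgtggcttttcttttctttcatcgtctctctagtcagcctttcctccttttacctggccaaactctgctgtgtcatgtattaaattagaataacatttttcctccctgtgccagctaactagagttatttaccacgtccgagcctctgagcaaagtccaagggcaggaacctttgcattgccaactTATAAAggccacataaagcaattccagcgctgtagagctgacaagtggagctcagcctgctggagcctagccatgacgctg

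The Nr0b2 window held TATAAA with its first letter at -28 from the start site, and the Cyp8b1 window held it at -31. The Nr1h4 window held AGGTCA on the opposite strand, printed as TGACCT, at -214 and GTTAAT at -40. Of all 32851 windows of this length, 16.3% held AGGTCA, 12.3% AAGGTC, 7.10% GTTAAT and 13.6% TATAAA. These matches describe letters in the windows and are not sites shown to be bound.

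Cyp7a1, the rate-limiting enzyme of the classic route, had a signal of 213.6 in HSL-null on FD, 92.6 in HSL-null on ND, 175.1 in wild type on FD and 111.1 in wild type on ND. Both FD arrays lay above both ND arrays. The log2 ratio of FD to ND was 1.21 in HSL-null and 0.66 in wild type, with a mean of 0.93 ± 0.39 (SD, n = 2 array pairs, which are the 2 genotypes and not replicates). Of the 4829 genes, 14, or 0.290%, including Cyp7a1, had both diet ratios at 0.66 or more, a cut set by Cyp7a1 itself. With the cut and direction set likewise by each gene, the share was 2.30% for Nr1h4 and 3.93% for Cyp7b1, both higher on FD. For genes lower on FD it was 2.51% for Cyp8b1, 3.56% for Slc10a1 and 8.93% for Baat. Between genotypes, Cyp7a1 had 0.29 on FD and -0.26 on ND, and each of these steps was smaller than the SD of 0.298. Both were larger in size than 0.247, the SD at mean signals of 50 to 500, where the 148.1 of Cyp7a1 lay.

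Cyp7b1, the oxysterol hydroxylase of the alternative route, had signals of 94.7 in HSL-null on FD, 77.9 in HSL-null on ND, 97.3 in wild type on FD and 59.8 in wild type on ND. It was also higher on FD in both genotypes, with log2 ratios of 0.28 in HSL-null and 0.70 in wild type. Its other probe set, named by Affymetrix as common to a sequence family, read 91.4, 76.0, 92.3 and 67.1 in the same 4 pools and gave 0.27 and 0.46. The lowest pool, wild type on ND, was the 1 pool that stood below its neighbour by more than the SD. HSL-null over wild type on ND gave 0.38 at the brighter probe set and 0.18 at the other.

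Cyp8b1, the sterol 12-alpha-hydroxylase, had signals of 469.0 in HSL-null on FD, 765.3 in HSL-null on ND, 432.9 in wild type on FD and 532.2 in wild type on ND. Both FD arrays lay below both ND arrays, opposite in diet direction to Cyp7a1. The step between the diets, from wild type on ND to HSL-null on FD, was 0.18, under the SD of 0.298. For FD against ND the log2 ratio was -0.71 in HSL-null and -0.30 in wild type. In wild type 43.4% of all genes had a ratio of that size or more, and hepatocyte scaling turned it to 0.10. On ND Cyp8b1 was higher in HSL-null than in wild type, with 0.52, and 9.05% of all genes had a ratio of that size or more. On FD the ratio was 0.12.

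Baat, the conjugating enzyme, had signals of 423.6 in HSL-null on FD, 464.5 in HSL-null on ND, 420.3 in wild type on FD and 475.3 in wild type on ND. Slc10a1, the sodium-dependent uptake carrier of the hepatocyte, had 1894 in HSL-null on FD, 2250 in HSL-null on ND, 1917 in wild type on FD and 2437 in wild type on ND. Each step between neighbouring pools was under the SD for both genes, and both were lower on FD by up to 1.27-fold. A second probe set of Slc10a1 gave diet ratios of -0.18 in HSL-null and -0.07 in wild type, against -0.25 and -0.35 at the brighter one. The probe set of Slc10a1 that did not pass the filter read between 2.0 and 4.3 on the 4 arrays, under the floor of 6.10 set for low signals.

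Nr1h4, the gene of FXR, had signals of 204.0 in HSL-null on FD, 112.0 in HSL-null on ND, 163.4 in wild type on FD and 128.6 in wild type on ND. Its pools stood in the same order as those of Cyp7a1, and no other measured gene of the 7 had that order. How many of all genes had it was not counted. The order rests in part on steps under the SD, of 0.29 and 0.26 for Cyp7a1 and 0.20 for Nr1h4. With arrays scaled to hepatocyte markers the 2 ND pools changed places, with genotype ratios on ND of 0.01 for Cyp7a1 and 0.08 for Nr1h4. On the log2 scale FD over ND was 0.87 in HSL-null and 0.35 in wild type for Nr1h4. Between genotypes it had 0.32 on FD and -0.20 on ND.

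Nr0b2, the gene of SHP, had signals of 220.4 in HSL-null on FD, 104.0 in HSL-null on ND, 97.1 in wild type on FD and 99.5 in wild type on ND. Only the HSL-null FD pool stood apart from the other 3, which lay within 1 SD of each other. Its log2 genotype ratio was 1.18 on FD and 0.06 on ND. For FD against ND it was 1.08 in HSL-null and -0.04 in wild type. The difference between the genotype ratios was 1.12, and 4.70% of all genes had a difference of that size or more. As a single probe set on 1 array carries the high value, it has no check by another probe set.

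**Figure D2:**
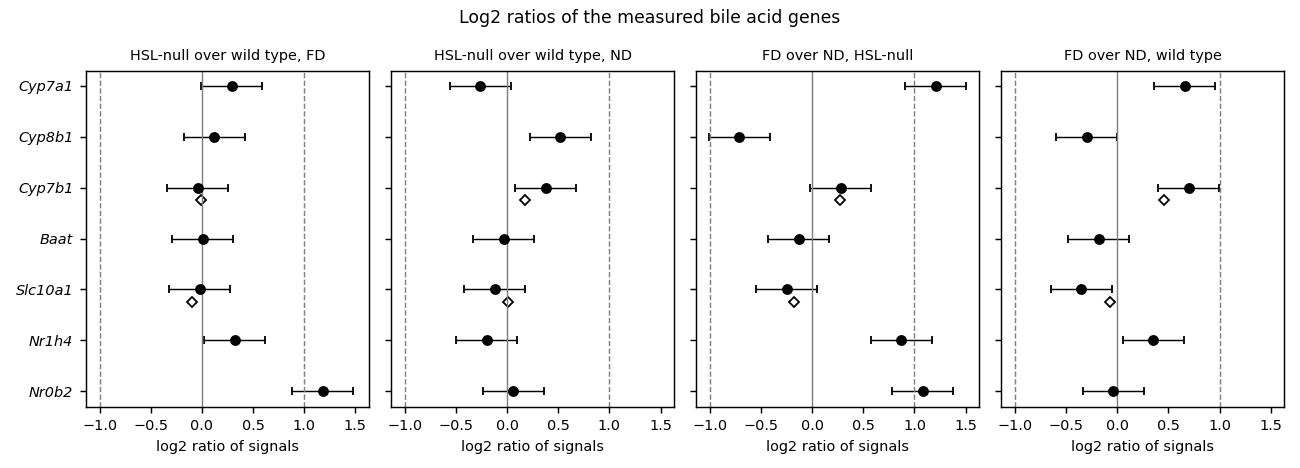
Log2 ratios of the 7 measured genes in the 4 comparisons. Filled points are the brightest probe set, with bars of 0.298 (the SD from genes with a second probe set), open diamonds the other probe set past the filter, and dashed lines mark 2-fold. Only Cyp7a1 in 1 comparison and Nr0b2 in 2 lie past a dashed line.

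On FD, HSL-null against wild type, 1 of the 7 genes was 2-fold different (Nr0b2, higher), where 2.82% of all 4829 genes were. The median log2 ratio of the 7 was 0.12, against 0.07 over all genes. On ND, 0 of the 7 were 2-fold different between genotypes, where 1.57% of all genes were, and the median was -0.03 against -0.02. For FD against ND in HSL-null, 2 of the 7 were 2-fold different (Cyp7a1 and Nr0b2, both higher), where 1.45% of all genes were, with a median of 0.28 against 0.04. In wild type 0 of the 7 were, where 3.15% of all genes were, with a median of -0.04 against -0.05. The difference between the genotype ratios was 2-fold or more for 1 of the 7 (Nr0b2), where 6.32% of all genes had such a difference. The members were chosen with earlier results known, so these counts describe them and test nothing.

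The 2 diet ratios share no array, and 6 of the 7 genes had the same sign in both, Nr0b2 being the exception, where 46.0% of all genes had the same sign. With quantile normalization or median scaling 7 of 7 had the same sign in both diet ratios, and with arrays scaled to hepatocyte markers 4 of 7 did, against 65.4% of all genes. For the 2 genotype ratios, which share no array either, 3 of the 7 had the same sign and 46.3% of all genes did. That count was 1 with median scaling and 5 with hepatocyte scaling. With each array divided by its median, the diet ratio of Nr0b2 in HSL-null was 0.93 and the difference between its genotype ratios 0.82, both under 2-fold, while its genotype ratio on FD was 1.02.

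**Figure D3:**
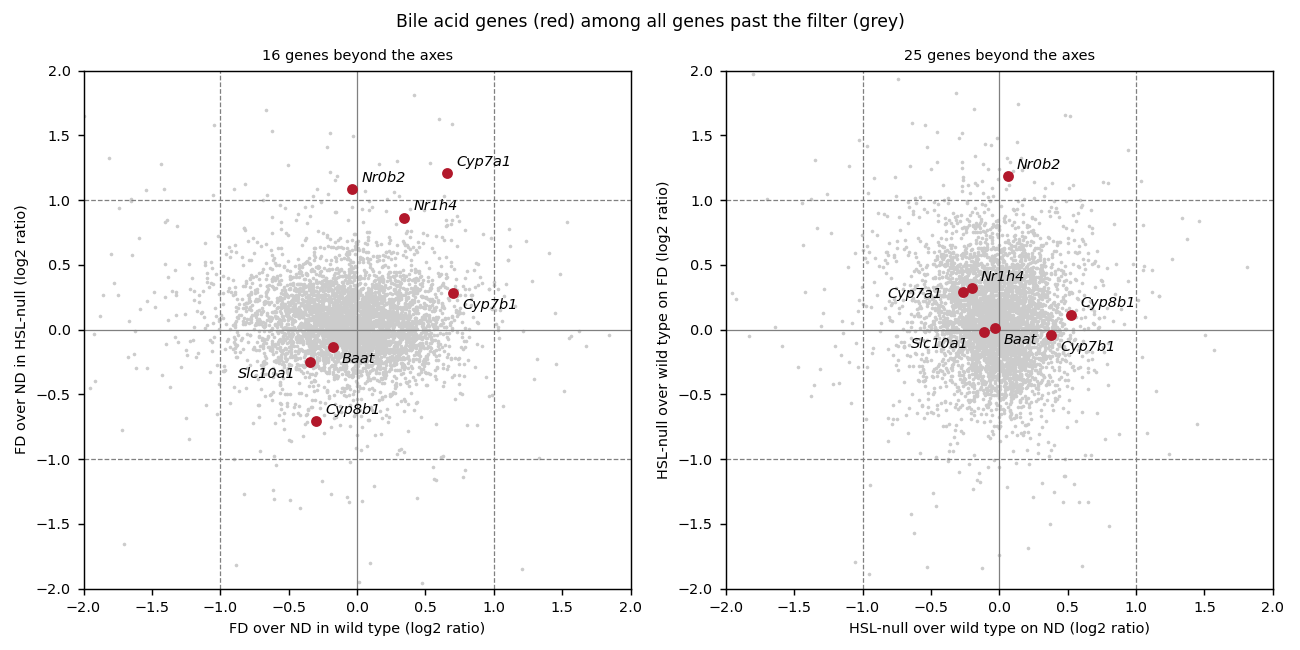
Left, log2 ratio of FD to ND in HSL-null (vertical) against wild type (horizontal). Right, HSL-null over wild type as a log2 ratio on FD (vertical) against ND (horizontal). Grey points are genes past the filter, red points the 7 bile acid genes, and dashed lines mark 2-fold. Cyp7a1 lies at 1.21 and 0.66 in the left panel, and Nr0b2 at 1.18 and 0.06 in the right panel.

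Markers of other cells differed between the same arrays. The exocrine pancreas list, with 7 of 10 genes past the filter, had a summed signal of 383.8 in HSL-null on FD, 330.5 in HSL-null on ND, 341.0 in wild type on FD and 967.8 in wild type on ND. The lymphocyte list, with 3 of 8 genes past the filter and 6 with a probe set, summed to 461.2, 239.5, 188.1 and 344.5 over those 6 in the same order. The 3 genes had a median log2 genotype ratio of 1.41 on FD, the comparison in which Nr0b2 was 2-fold higher. Summed over genes with a probe set, the signal was 2872 to 4286 for macrophages (11 of 12 genes past the filter), 249.7 to 373.7 for stellate cells (4 of 7), 849.2 to 994.3 for endothelium (5 of 7) and 2462 to 3098 for red blood cells (4 of 6). Macrophage and stellate markers were lowest in wild type on FD. Their part in the ratios of the bile acid genes was not tested.

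For bile duct cells, which also handle bile acids, 7 of 10 markers had a probe set and 1 passed the filter, and the 7 summed to 63.3 to 108.9. The gene that passed was Muc1, an epithelial mucin gene, with signals of 26.2 in HSL-null on FD, 28.8 in HSL-null on ND, 50.9 in wild type on FD and 12.2 in wild type on ND. Its log2 diet ratio was -0.14 in HSL-null and 2.06 in wild type, and its part in the results above was not tested. The keratin gene Krt19 read 4.4 to 13.7 and Epcam 1.0 to 8.1 at their brightest probe sets, near the floor of 6.10. Above it on all 4 arrays were Cftr, with 13.5 to 16.3 at its brightest probe set, and Slc10a2, with 7.1 to 13.7. Of the intestinal list, 2 of 7 genes passed, Fabp2 and Apoa4, which liver also expresses, and the epithelial genes Vil1 and Cdx2 were at or under the floor on all 4 arrays. Slc10a2, given above, and Fabp6 did not pass but lay above the floor on all 4. Fabp6 read 15.5 to 27.1 at its brighter probe set. The list summed to 3048 to 3747.

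Hepatocyte markers were present on every array, as Alb, the albumin gene, read 4680 in HSL-null on FD, 5382 in HSL-null on ND, 4976 in wild type on FD and 6913 in wild type on ND. The 7 measured hepatocyte markers of 8 had a median log2 ratio of -0.18 for FD to ND in HSL-null and of -0.44 in wild type. Scaling each array to these markers, an alternative chosen after seeing the data, gave diet ratios in wild type of 1.05 for Cyp7a1, 1.10 for Cyp7b1, 0.74 for Nr1h4, 0.36 for Nr0b2 and 0.10 for Cyp8b1. The ratios of Nr0b2, Cyp8b1, Baat and Slc10a1 thereby changed sign. In whole liver, fewer cells of a type and less RNA per cell cannot be told apart.

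Lipe had a signal of 15.9 in HSL-null on FD and 11.9 in HSL-null on ND, against 34.0 in wild type on FD and 28.0 in wild type on ND, and its mean of 22.45 lay under the filter of 26.9. The sources used here do not place its probes relative to the deletion. The arrays had 2% trimmed means of 100.1 each and medians of 25.2 to 28.3. The ratio of 3' to 5' probe sets was 0.838 to 0.867 for Gapdh and 1.32 to 1.49 for Actb, and the 18S control read 84.2 to 99.1 on FD and 192.2 to 307.1 on ND. The solution lot recorded for the arrays differed between the genotypes, so the lot cannot be told apart from genotype.

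The other genes of the pathway were read from a list of 54, of which 35 had a probe set and 29 passed the filter. Between genotypes on FD, 1 of the 29 was 2-fold higher and 1 lower, against 2.82% of all genes in either direction, and on ND 0 were higher and 1 lower, against 1.57%. For FD against ND, 0 of the 29 were 2-fold different in HSL-null, against 1.45% of all genes, and in wild type 2 were higher and 1 lower, against 3.15%. Medians over the 29 lay between -0.02 and 0.07.

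Among the other enzymes, 3 of 8 were measured. Cyp2c70, which makes the muricholic acids of mice, had signals of 1843 in HSL-null on FD, 1971 in HSL-null on ND, 1188 in wild type on FD and 1644 in wild type on ND. Its log2 genotype ratio was 0.63 on FD and 0.26 on ND. Hsd3b7, which acts on the sterol ring after Cyp7a1 or Cyp7b1, had 0.40 and 0.27. For FD to ND in wild type, Cyp2c70 had -0.47 and Akr1c6, a hydroxysteroid dehydrogenase, had -0.29, which is under the SD of 0.298. With arrays scaled to hepatocyte markers these ratios were -0.07 and 0.10. In HSL-null the diet ratio was -0.10 for Cyp2c70 and 0.01 for Hsd3b7.

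Of the side chain shortening genes 9 of 10 were measured, and none reached 2-fold in the 4 comparisons. Slc27a5, the bile acid CoA ligase, had -0.39 for FD to ND in HSL-null. Hsd17b4, the peroxisomal multifunctional enzyme, had 0.25 in HSL-null and 0.50 in wild type, and the thioesterase gene Acot8 had 0.44 in wild type. Scp2, the peroxisomal thiolase and sterol carrier gene, had a genotype ratio of 0.42 on FD, but 0.04 at its other probe set. Pex2, a peroxisome assembly gene, had genotype ratios of 0.47 on FD and 0.22 on ND, and the peroxisomal transporter gene Abcd3 had -0.35 on ND.

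The 5 measured genes of 16 on the transporter list had log2 ratios of FD to ND above 0 in both genotypes. Of all 4829 genes, 2750 had a ratio above 0 in HSL-null and 2124 in wild type. How many were above 0 in both was not counted, but 46.0% had the same sign in both, in either direction. The ratios of Abcc2 in wild type (0.04) and of Abcb4 in HSL-null (0.28) were under the SD of 0.298. The median over the 5 was 0.62 in HSL-null and 0.44 in wild type, against 0.04 and -0.05 over all genes. Abcg2, an efflux pump of the canalicular membrane, had signals of 147.0 in HSL-null on FD, 85.9 in HSL-null on ND, 132.3 in wild type on FD and 61.2 in wild type on ND, with diet ratios of 0.78 in HSL-null and 1.11 in wild type and a genotype ratio of 0.49 on ND. Ephx1, which encodes microsomal epoxide hydrolase, had 853.8, 530.5, 1214 and 515.0 in the same pools, with diet ratios of 0.69 in HSL-null and 1.24 in wild type and a genotype ratio of -0.51 on FD. Abcc2, the canalicular export pump for conjugates, had 0.62 in HSL-null and 0.04 in wild type, and its genotype ratio on FD was 0.68. The basolateral pump gene Abcc3 had 0.44 and 0.42 for diet and -0.20 for genotype on ND. Abcb4, which moves phosphatidylcholine into bile and was picked after its values were seen, had 0.28 and 0.44 for diet.

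Among the regulators, 12 of 20 were measured. Dbp, a clock-driven transcription factor that activates Cyp7a1 in rat, had signals of 54.4 in HSL-null on FD and 64.3 in HSL-null on ND, against 188.8 in wild type on FD and 133.5 in wild type on ND. Its log2 genotype ratios were -1.80 on FD and -1.05 on ND, and on ND -0.78 with arrays scaled to hepatocyte markers. Prox1, a corepressor of nuclear receptors, had signals of 49.9 in HSL-null on FD, 31.4 in HSL-null on ND, 17.9 in wild type on FD and 38.6 in wild type on ND. Its genotype ratio on FD was 1.48 and stayed at 2-fold or more in 8 of 9 alternative settings, but was 0.90 with the floor for low signals at the median of all values. Its diet ratio was 0.67 in HSL-null and -1.11 in wild type, and in wild type it was -0.53 with that floor and 2-fold in 3 of 9 settings. Rxra, the partner of FXR on DNA, had -0.47 for genotype on ND, with -0.12 at its other probe set. Nr1i3, the gene of the receptor CAR, had a diet ratio of 0.44 in HSL-null, with 0.33 at both other probe sets, and Mafg, which encodes a repressor that FXR induces, had -0.65 in wild type, with -0.33 at its other probe set.

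**Figure D4:**
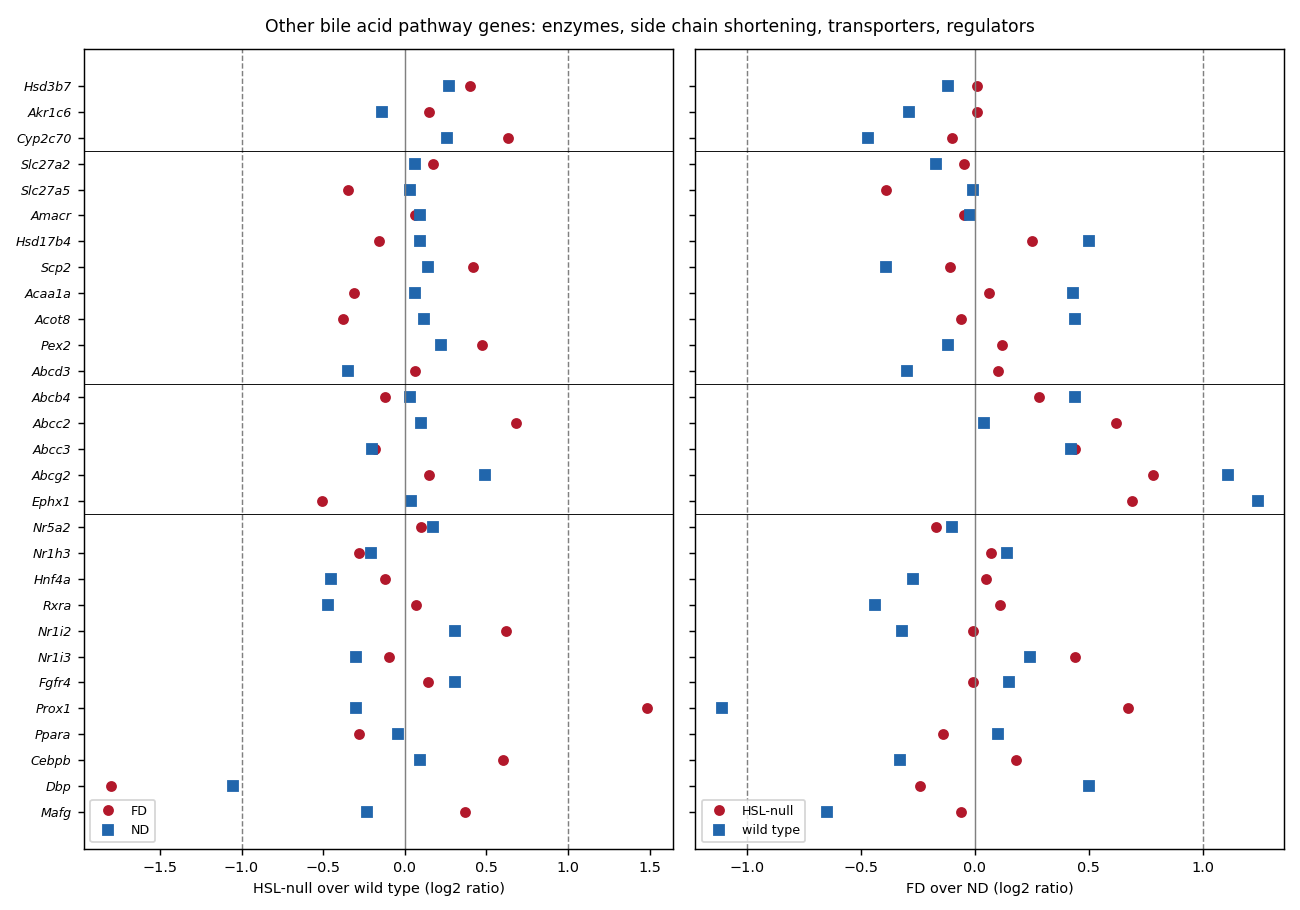
Log2 ratios of the 29 other pathway genes past the filter, with enzymes, side chain shortening genes, transporters and regulators from top to bottom, 1 point per pair of arrays and dashed lines at 2-fold. Left, HSL-null over wild type, with circles for FD and squares for ND. Right, FD over ND, with circles for HSL-null and squares for wild type. The 5 genes of the transporter list, among them the enzyme gene Ephx1, lie to the right of 0 in the right panel for both genotypes.

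The genes whose pattern over the 4 arrays was most like that of a member were found by the Euclidean distance between log2 signals centred on their mean. Cyp7a1, Nr0b2 and Nr1h4 had the largest ranges of log2 signal, of 1.21, 1.18 and 0.87. Nearest to Cyp7a1 were Brix1 at 0.251, Brip1os at 0.262 and Cd36, which encodes a fatty acid transporter, at 0.286, with Nr1h4 the fourth of all genes at 0.330. Nearest to Nr1h4 were Cd36 at 0.067, Kpna2 at 0.089 and Bmp5 at 0.112, and Cyp7a1 had rank 76 at 0.330. Nearest to Nr0b2 were the immediate early gene Ier2 at 0.263, Anp32e at 0.274 and Jun, another immediate early gene, at 0.292. Ier2 had signals of 385.6 in HSL-null on FD, 199.7 in HSL-null on ND, 162.9 in wild type on FD and 211.6 in wild type on ND. With 4 arrays and 4829 genes such distances are a description.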

How the data were processed

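Liver RNA of 4 pools was measured on 4 Affymetrix MG_U74Av2 arrays, 1 per group. The table deposited by the authors holds a signal intensity per probe set on a linear scale, made with MAS5 per the submitters' processing notes, which name no version. Per the file headers of the run settings, there were 1 chip lot, 1 scan day and 2 solution lots, 1 per genotype.

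From the 12488 probe sets, 66 controls were left out. Signals under 6.10, the 25th percentile, were set to that value before log2 was taken. Probe sets with a mean of at least 26.9, the median, and 1 annotated gene were kept (5615, for 4829 genes), and the brightest represented its gene. The steps were tested on simulated data. Tools were Python 3.11.15, pandas 2.3.3, R 4.3.3 and limma 3.58.1, which served for cyclic loess alone. The alternatives were quantile normalization, median scaling, cyclic loess, a higher floor, a pseudocount, no filter and a stricter one (75th percentile), averaging the probe sets of a gene, no suffix probe sets and, added after seeing the data, scaling to hepatocyte markers.

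The genes and lists were chosen with earlier results of these data known. Named were all members and Lipe. From each pathway list and comparison, genes at 2-fold or more were named and the 2 largest ratios in size above the floor. For likeness, the 3 nearest genes were named for the 3 members with the largest range.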

Additional observations from a re-analysis of the deposited data

Results flagged for a closer look

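Ratios of 5 genes went opposite ways in the 2 diets or the 2 genotypes, with 1 array on each side, and no difference between them was tested. Such turns were common, as 46.3% of all genes had the same sign in both genotype ratios and 46.0% in both diet ratios. For HSL-null over wild type, Cyp7a1 had a log2 ratio of 0.29 on FD and -0.26 on ND, Nr1h4 had 0.32 and -0.20, Cyp7b1 -0.04 and 0.38, and Baat 0.01 and -0.03. Nr0b2 had a log2 ratio of FD to ND of 1.08 in HSL-null and -0.04 in wild type. Several of these ratios were smaller than 0.298, the SD from genes with a second probe set, among them both of Cyp7a1 and both of Baat. Those of Cyp7a1 were larger in size than 0.247, the SD at mean signals of 50 to 500. With arrays scaled to hepatocyte markers the genotype ratios on ND were 0.01 for Cyp7a1 and 0.08 for Nr1h4, above 0 as on FD. The diet ratio of Nr0b2 in wild type was also above 0 in 3 settings, with 0.03 after quantile normalization, 0.11 with median scaling and 0.36 with hepatocyte scaling.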

How the results depend on the processing

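Of 345 log2 ratios of single genes under 9 alternative settings and 1 added after seeing the data, 331 moved by less than 0.298, the SD from genes with a second probe set. The 331 include the ratios under the higher floor and both filter changes, which moved none. No ratio of 2-fold or more changed sign, and with a largest shift of 0.395 none could. Smaller ratios did. The difference between genotype ratios of Slc10a1 kept its sign in 6 of 10 alternatives, and the diet ratio of Nr0b2 in wild type in 7. The 7 differences between genotype ratios moved by 0.298 with median scaling, as much as that SD. The SD was taken from ratios of 1 array over another and not from such differences. The 7 diet ratios in wild type moved by 0.395 with arrays scaled to hepatocyte markers. That scaling gave 2 genes 2-fold different there in place of 0 and a median of 0.36 in place of -0.04. The genotype ratio of Nr0b2 on FD lay between 1.02 and 1.18 and the diet ratio of Cyp7a1 in HSL-null between 1.05 and 1.32, 2-fold or more under all 10 alternatives. The higher floor, both changes of the filter, averaging of probe sets and leaving out suffix probe sets could not move these ratios. Each gene had 1 probe set, above that floor on every array. Median scaling left 1 gene 2-fold different for diet in HSL-null in place of 2, and it and hepatocyte scaling left 0 in place of 1 for the difference between genotype ratios.

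Counts over all genes, in the order genotype on FD, genotype on ND, diet in HSL-null, diet in wild type and difference, were 136, 76, 70, 152 and 305. They were 419, 313, 290, 480 and 884 with no filter and 44, 14, 30, 47 and 86 with the stricter one. With the higher floor the first 3 were 89, 47 and 46, with a pseudocount the second was 45, and with hepatocyte scaling the fourth was 248. Higher and lower genes numbered 90 and 46, 24 and 52, 40 and 30, 38 and 114, and 238 and 67. With median scaling they numbered 51 and 72, 30 and 36, 22 and 48, 61 and 74, and 114 and 211, with quantile normalization 63 and 59, 28 and 38, 28 and 39, 48 and 84, and 149 and 117. Cyclic loess gave 58 and 58 for genotype on FD, 27 and 39 for diet in HSL-null and 155 and 112 for the difference. Hepatocyte scaling gave 54 and 28, 60 and 25, 206 and 42, and 117 and 197 in the last 4 comparisons. Median scaling moved the median of all genes by -0.168, 0.131, -0.156, 0.142 and -0.299, and hepatocyte scaling by 0.277, 0.110, 0.396 and -0.286 in the last 4.

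No paired analysis was possible because each group has 1 array, and no array was left out of a group. Cyp7b1, with a mean signal of 82.4, did not pass the stricter filter.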

Other observations

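Of the other pathway genes, 6 had a probe set and none past the filter, so they entered no comparison. Slc51a, which encodes a subunit of the basolateral bile acid exporter, read 14.3 in HSL-null on FD, 13.2 in HSL-null on ND, 13.7 in wild type on FD and 16.5 in wild type on ND. Abcb1a, an efflux pump gene, read 16.7, 16.1, 15.8 and 14.6 in the same pools. Fgf15, the hormone by which the ileum restrains bile acid synthesis in liver, lay between 1.9 and 2.4, under the floor of 6.10 on all 4 arrays. Ch25h, which encodes cholesterol 25-hydroxylase, lay between 2.7 and 8.1, and Ppargc1a, a transcriptional coactivator gene, between 4.0 and 7.0. The brighter of both probe sets of the vitamin D receptor gene Vdr read 7.1 in HSL-null on FD, 6.0 in HSL-null on ND, 16.8 in wild type on FD and 9.3 in wild type on ND.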
